A study of Homo sapiens with 6 samples.

Results

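Eph receptors and their membrane-bound ligands, the ephrins, were followed in HaCaT cells, an immortalised line of human epidermal keratinocytes. The set was chosen by name as 10 genes, 6 receptors (EPHA1, EPHA2, EPHA4, EPHB2, EPHB3, EPHB4) and 4 ligands (EFNA1, EFNA3, EFNA5, EFNB1). Every probe set that the platform annotation assigns to these symbols alone was taken. This gave 20 of 54613 probe sets and 9 of 19775 genes, and EPHB2 was not analysed here. Affymetrix arrays measured RNA from 3 cultures held for 12 h in a negative-pressure incubator at a gradient of 125 mmHg and from 3 control cultures held for 12 h at ambient pressure. All 6 cultures were HaCaT cells grown in DMEM with serum, lysed for total RNA right after the treatment, and described as biological replicates. A single cell line stands for keratinocytes here. The p-values, SE and intervals use the spread between these 3 arrays per group, drawn by limma towards that of all genes or probe sets. The series title concerns the disassembly of adherens junctions, and the comparison asks whether this family of cell-contact receptors and ligands differed at the transcript level under negative pressure.

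Eph receptors are receptor tyrosine kinases that bind ephrins on the surface of neighbouring cells. Ephrin-A ligands are held in the membrane by a lipid anchor, whereas ephrin-B ligands cross the membrane and have a cytoplasmic tail that signals into the cell that carries it. Contact between cells can therefore signal in both directions, through adaptors and Src family kinases among others, and alters cell adhesion, repulsion and the actin cytoskeleton. In the epidermis EPHA2 and ephrin-A1 are a much studied pair and take part in keratinocyte adhesion and differentiation.

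All values are log2 RMA values as the authors deposited them, and a difference is negative minus ambient pressure on that scale. Replicate 3 of both groups stood apart from the other 4 arrays on the first principal component over genes (42.2% of the variance), at 31.1 under negative and 20.3 at ambient pressure, against -18.3 to -9.07 for the rest. Pressure separated on the second component (30.9%). Of the keratinocyte markers, 6 of 8 were measured (KRT5, KRT14, SFN, CDH1, DSG3, LAMB3), with means of 8.35 to 12.5. Marker means were 3.04 to 6.78 for fibroblasts, 3.25 to 3.95 for melanocytes, 4.31 to 5.04 for endothelial cells and 2.30 to 4.87 for leukocytes, against a median gene mean of 4.997. No keratinocyte marker passed the test, although their summed log2 level was 65.9 to 66.0 under negative pressure and 64.7 to 64.9 at ambient pressure. The markers did not all rise. KRT5, KRT14, CDH1, DSG3 and LAMB3 stood at 0.33, 0.06, 0.15, 0.63 and 0.16, and SFN at -0.14. With the replicate number as a block 1 keratinocyte marker passed, DSG3, at 0.63 (limma adjusted p = 0.0146, without the block 0.153). Among the other markers the endothelial CDH5 fell by 0.80 (limma adjusted p = 0.0325), with means of 4.01 under negative and 4.81 at ambient pressure, below the median gene mean. The other endothelial markers stood at -0.13 (PECAM1) and 0.03 (VWF), and neither passed. The summed endothelial level was 13.0 to 13.6 under negative and 13.6 to 14.8 at ambient pressure. The part of these shifts in the results below was not tested.

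None of the 9 measured member genes passed an adjusted p of 0.05 between the pressures in limma. Among these 9 the larger differences were those of the receptor gene EPHB3, which stood 1.29-fold higher under negative pressure, and the ligand gene EFNA1, 1.28-fold higher. The receptor gene EPHA2 was 1.24-fold lower on average, with arrays that did not move together. In RNA from whole cultures, a change in the cells that carry a transcript and a change in its amount per cell cannot be told apart. Of the 9 genes, 0 passed, against 0.92% of all 19775 genes, and 2 (EPHB3 and EFNA1) had an unadjusted p under 0.05, against 11.7% of all genes in either direction and 7.21% in the upward direction that both took. The median difference over the 9 genes was 0.10, against 0.015 over all genes. It was above 0 in 6 genes and below in 3, and 53.4% of all genes lay above 0. In 3 genes (EPHB3, EPHB4 and EFNA1) the negative pressure arrays all lay above the ambient arrays, and in none did they all lie below. Over all genes the groups did not overlap in 17.3%, and in 10.3% the negative pressure arrays lay above. The 95% intervals of the 9 genes reached from 0.568-fold at the lowest (EPHA2) to 1.57-fold at the highest (EPHB3).

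**Figure D1:**
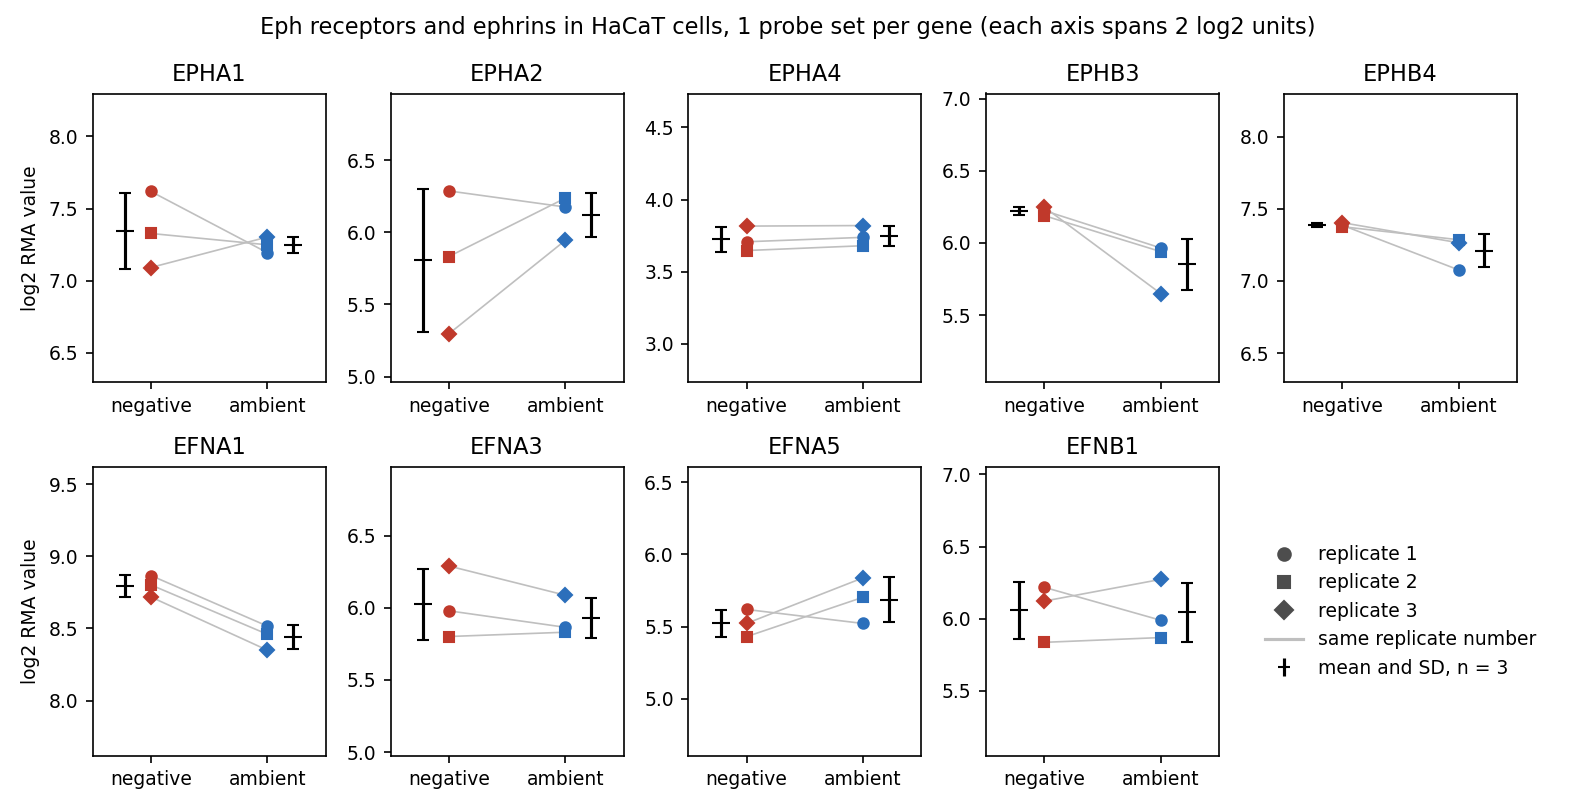
Log2 RMA value (vertical axis) of the probe set that stands for each member gene, under negative pressure (red, left) and ambient pressure (blue, right), with the mean and SD beside the 3 arrays and grey lines joining the same replicate number. EFNA1, EPHB3 and EPHB4 have all red points above all blue points, whereas EPHA2 spreads from 5.30 to 6.29 under negative pressure.

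The promoters of EPHB3 and EFNA1 are shown because these are the 2 members with an unadjusted p under 0.05. They are RefSeq windows of 300 bases around the gene start in GRCh38.p14, 5′ to 3′ on the plus strand, at chr3:184561535-184561834 for EPHB3 and chr1:155127626-155127925 for EFNA1. Capitals mark each match to the GC box GGGCGG on either strand.
EPHB3: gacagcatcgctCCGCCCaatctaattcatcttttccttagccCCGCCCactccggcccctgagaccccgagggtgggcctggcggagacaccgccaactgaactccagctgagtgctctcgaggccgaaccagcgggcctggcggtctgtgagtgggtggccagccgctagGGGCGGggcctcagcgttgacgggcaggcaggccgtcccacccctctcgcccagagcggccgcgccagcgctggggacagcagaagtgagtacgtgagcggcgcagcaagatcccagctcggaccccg
EFNA1: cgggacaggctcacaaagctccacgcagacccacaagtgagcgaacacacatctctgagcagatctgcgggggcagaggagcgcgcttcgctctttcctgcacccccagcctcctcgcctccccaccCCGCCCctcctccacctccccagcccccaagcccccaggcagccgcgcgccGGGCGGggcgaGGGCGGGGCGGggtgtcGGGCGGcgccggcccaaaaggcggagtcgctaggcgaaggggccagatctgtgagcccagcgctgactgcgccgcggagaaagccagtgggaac
Bases G and C made up 69% of the EPHB3 window and 71.7% of the EFNA1 window. The EPHB3 window held 3 GC boxes and the EFNA1 window 5, of which those starting at window positions 190 and 195 overlap. All 10 listed genes, EPHB2 included, had a window with a GC box. Of 35116 RefSeq promoter windows of this length 45% held a GC box, a share counted by single window and not by gene. The 10 genes and this share are therefore unlike counts. The AP-1 motif TGANTCA (7.71% of all windows), the E-box CACGTG (7.26%) and the TATA box TATAAA (11.5%), searched on both strands, were in no window of the 10 genes. These matches describe letters only, and the arrays carry no measurement of binding.

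Among the ligands, EFNA1 encodes ephrin-A1, a ligand of EPHA2. Its probe set read 8.87, 8.80 and 8.72 in replicates 1 to 3 under negative pressure, against 8.52, 8.46 and 8.35 at ambient pressure. The lowest negative pressure array lay above the highest ambient array, and the difference within a replicate number was 0.35, 0.34 and 0.37. The mean was 8.79 ± 0.07 under negative and 8.44 ± 0.08 at ambient pressure (SD, n = 3 each), a difference of 0.35 ± 0.11 (SE; 95% interval 0.10 to 0.60; limma adjusted p = 0.229). EFNA1 has 1 probe set here.

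The groups overlapped in the 3 other member ligands. EFNA3, which encodes ephrin-A3, read 5.98, 5.80 and 6.29 under negative pressure and 5.87, 5.83 and 6.09 at ambient pressure, a difference of 0.10 ± 0.15 (SE; limma adjusted p = 0.895). Replicate 3 was the highest array of both groups. EFNB1, which encodes the transmembrane ligand ephrin-B1, read 6.22, 5.84 and 6.12 under negative pressure and 5.99, 5.87 and 6.27 at ambient pressure. Its groups lay within the same range, with a difference of 0.015 and a 95% interval of -0.32 to 0.35.

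EFNA5, which encodes ephrin-A5, was measured by 4 probe sets, all with a difference below 0. The one that stands for the gene, 214036_at, read 5.62, 5.43 and 5.52 under negative pressure and 5.52, 5.70 and 5.84 at ambient pressure, a difference of -0.16 ± 0.12 (SE; limma adjusted p = 0.731). The groups overlapped. The other 3 probe sets stood at -0.06 (207301_at), -0.13 (227955_s_at) and -0.22 (233814_at), also with overlapping groups. In 233814_at negative pressure replicate 1 read 4.96, and the other 5 arrays lay between 5.59 and 5.72. Without that array its difference was 0.0065.

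Among the receptors, EPHB3, a receptor for ephrin-B ligands, was measured by 2 probe sets that were both higher under negative pressure in all 3 replicate numbers. The one that stands for the gene, 204600_at, read 6.22, 6.19 and 6.25 under negative pressure, against 5.97, 5.94 and 5.65 at ambient pressure. The negative pressure arrays lay within a narrow range above all ambient arrays, of which replicate 3 was the lowest. The mean was 6.22 ± 0.03 under negative and 5.85 ± 0.18 at ambient pressure (SD, n = 3 each), a difference of 0.37 ± 0.12 (SE; limma adjusted p = 0.263). With the third replicates of both groups omitted the difference was 0.25.

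The second EPHB3 probe set, 1438_at, read 5.09, 5.18 and 5.49 under negative pressure, against 4.49, 4.59 and 4.66 at ambient pressure. The groups were set apart by more than the range of either, with within-number differences of 0.60, 0.59 and 0.84. Its difference of 0.67 ± 0.14 (SE; 1.59-fold) was the largest among the 20 member probe sets, with a limma adjusted p over all probe sets of 0.0843. With the replicate number as a block it passed (adjusted p = 0.0207). Of the 20 member probe sets, 0 passed without the block, against 0.48% of all probe sets, and 1 with it, against 2.27%. An unadjusted p under 0.05 was found for 3 of the 20 (both EPHB3 probe sets and that of EFNA1), against 9.86% of all probe sets. All 3 were higher under negative pressure, a direction that 3031 of all 54613 probe sets took at that p. The groups did not overlap in 4 of the 20, against 15%. In all 4 the negative pressure arrays lay above, as they did in 4607 of all 54613 probe sets.

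**Figure D2:**
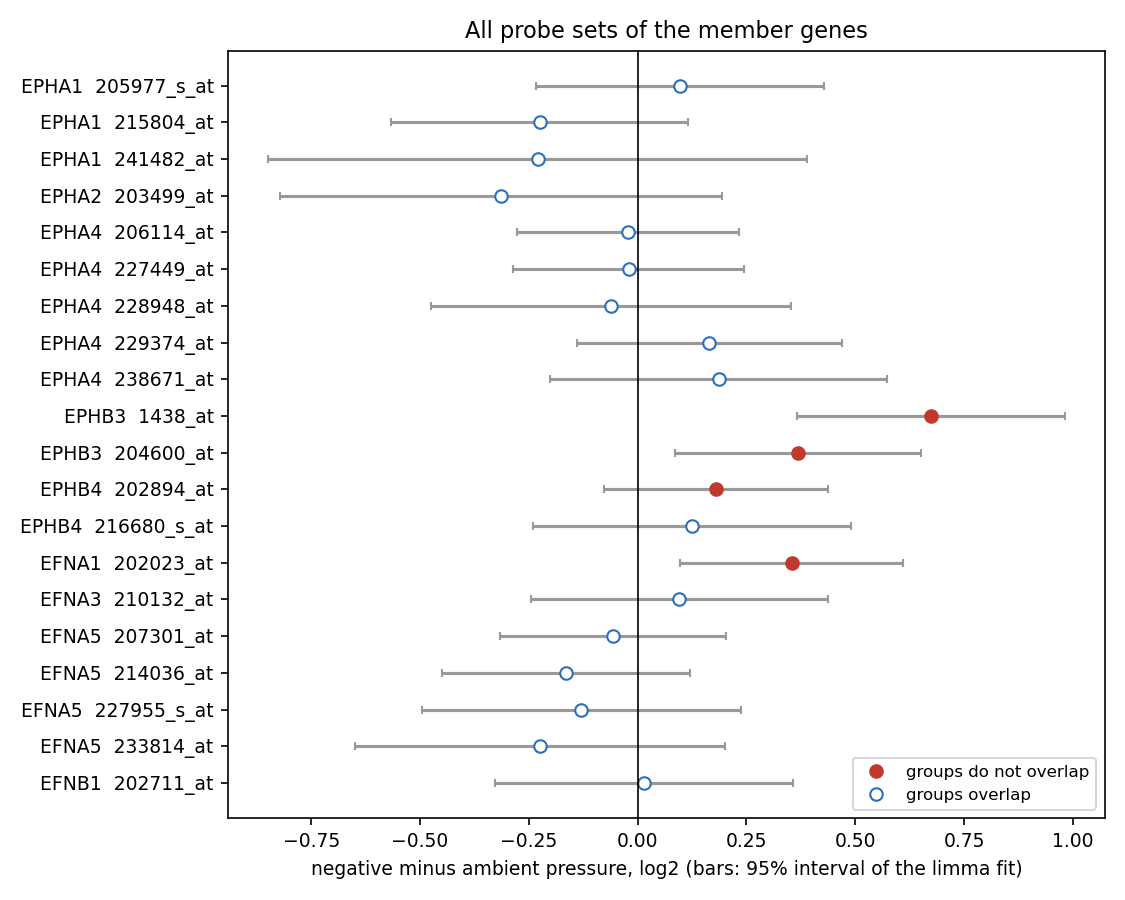
Difference between negative and ambient pressure (horizontal axis, log2) for all 20 member probe sets, with the 95% interval of the limma fit over all probe sets as bars. Filled red points mark probe sets whose groups do not overlap, and 1438_at of EPHB3 lies farthest from 0 at 0.67.

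EPHB4, the receptor of ephrin-B2 best known from blood vessels, read 7.39, 7.38 and 7.40 under negative pressure, against 7.08, 7.29 and 7.26 at ambient pressure in 202894_at. All negative pressure arrays lay above the ambient arrays, of which replicate 1 was the lowest. The difference was 0.18 ± 0.11 (SE; limma adjusted p = 0.627). The second probe set, 216680_s_at, stood at 0.13, with replicate 3 the highest array of both groups (5.95 under negative and 5.94 at ambient pressure).

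EPHA2, the Eph receptor best known from keratinocytes, was measured by 1 probe set. It read 6.29, 5.83 and 5.30 under negative pressure and 6.17, 6.24 and 5.94 at ambient pressure. Under negative pressure the arrays spread widely, replicate 1 above and replicates 2 and 3 below all ambient arrays, with within-number differences of 0.11, -0.40 and -0.65. The mean was 5.80 ± 0.50 under negative and 6.12 ± 0.15 at ambient pressure (SD, n = 3 each), a difference of -0.31 ± 0.22 (SE; 95% interval -0.82 to 0.19; limma adjusted p = 0.699). Single arrays decided its size. With negative pressure replicate 3 left out the difference was -0.059, and with replicate 1 of that group left out it was -0.55. With the third replicates of both groups omitted it was -0.15.

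EPHA1, a receptor for ephrin-A ligands, likewise had a wider spread under negative pressure, at 7.62, 7.33 and 7.09, against 7.19, 7.25 and 7.30 at ambient pressure in 205977_s_at. The negative pressure arrays lay on both sides of the ambient arrays, and the difference was 0.10 ± 0.15 (SE; limma adjusted p = 0.892). The 2 weaker probe sets of EPHA1 stood at -0.23 each (215804_at and 241482_at), with values of 2.66 to 3.87 on the 6 arrays.

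EPHA4, which binds ligands of both classes, was measured by 5 probe sets, and the values of all 5 lay below the median gene mean, between 1.45 and 3.82. The one that stands for the gene, 206114_at, read 3.71, 3.65 and 3.82 under negative pressure and 3.74, 3.68 and 3.82 at ambient pressure. Arrays of the same number were nearly equal, with a difference of -0.023 and a 95% interval of -0.27 to 0.23. The other 4 stood between -0.06 and 0.19, all with overlapping groups.

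Whether probe sets of 1 gene differed in response was tested on the per-array difference of the brightest probe set minus each other one. Of the 11 member pairs, 0 passed in limma and 0 had an unadjusted p under 0.05, against 0.131% and 8.49% of all 21316 such pairs. For EPHB3 the brightest minus the other probe set gave -0.30 with a 95% interval of -0.73 to 0.13. For EPHA1 the pairs gave 0.32 and 0.33, with intervals that include 0.

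The other 12 genes of the family were all measured, and 0 passed in limma, against 0.92% of all genes. Differences lay between -0.18 and 0.54, around a median of 0.024, and 1 gene had an unadjusted p under 0.05, against 11.7% of all genes. This was EFNA4, which encodes another lipid-anchored ligand. It read 6.78, 7.08 and 6.72 under negative pressure, against 6.43, 6.38 and 6.14 at ambient pressure, without overlap. The difference was 0.54 ± 0.14 (SE; limma adjusted p = 0.141, with the replicate block 0.0210, where 2.87% of all genes rose). Adjusted over all probe sets and not over genes, the limma block value was 0.0501. The next smallest p was that of the receptor gene EPHA3 (0.17, limma adjusted p = 0.643), whose values lay between 1.84 and 2.12.

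EFNA4, EFNA3 and EFNA1 follow each other on chromosome 1 in the RefSeq gene order, followed by SLC50A1 and DPM3. The differences of these 5 genes in that order were 0.54, 0.10, 0.35, 0.18 and 0.34, and 0 of them passed. EFNA3 lies between both other ephrin genes and was the one of the 3 whose groups overlapped. The read-through transcript EFNA4-EFNA3 was not analysed here.

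Genes that act with Eph receptors and ephrins inside the cell or cut them at the surface were listed by name: exchange factors and GTPases, kinases, adaptors, phosphatases, partners of the ephrin-B tail and proteases. Of 48 listed genes 43 were measured. In limma 2 rose (4.65% of the 43), against 0.607% of all genes, and 0 fell, against 0.314%. The 2 were VAV3 and RGS3. The list was drawn up with earlier results of these data known, so its share is not independent of the data and only describes the list. The median difference was 0.044, against 0.015 over all genes, and 27 of 43 (62.8%) lay above 0, against 53.4% of all genes. With the replicate block 4 rose and 2 fell, against 4.94% of all genes called in either direction.

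VAV3 encodes a guanine nucleotide exchange factor of the Vav family that Eph receptors recruit. It read 6.51, 6.42 and 6.19 under negative pressure, against 5.56, 5.43 and 5.30 at ambient pressure in 218807_at. The groups were far apart, with no negative pressure array within the ambient range. The rise was 0.94 ± 0.13 (SE; 1.92-fold; limma adjusted p = 0.0189). Both other probe sets of VAV3 rose as well, by 1.26 (218806_s_at) and 1.18 (224221_s_at), each with a limma adjusted p over all probe sets of 0.0263. The gene no longer passed when ambient pressure replicate 1 (adjusted p = 0.0790) or 2 (0.117), or negative pressure replicate 1 (0.0882) or 2 (0.104), was left out.

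RGS3 encodes a regulator of G-protein signalling, a form of which binds the cytoplasmic tail of ephrin-B. It read 6.61, 6.53 and 6.76 under negative pressure, against 5.93, 5.90 and 5.79 at ambient pressure in 203823_at. All negative pressure arrays lay above all ambient arrays, and the rise was 0.76 ± 0.12 (SE; 1.69-fold; limma adjusted p = 0.0248). The other 2 probe sets of RGS3 did not share it, at -0.02 (220300_at) and 0.06 (232223_at), with values of 3.33 to 4.07. The mean of the 3 probe sets stood at 0.27 (adjusted p = 0.223). Nor did the gene pass when any 1 ambient pressure array was left out (adjusted p of 0.113, 0.144 and 0.0599 for replicates 1, 2 and 3), or negative pressure replicate 1 (0.0980) or 2 (0.0991).

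Of the next genes of the list by p, GRB7, an adaptor that binds phosphorylated receptors, stood at 0.91 ± 0.22 (SE; limma adjusted p = 0.117, with the replicate block 0.00148). It read 7.88, 7.75 and 8.53 under negative pressure, against 6.99, 6.95 and 7.48 at ambient pressure, replicate 3 being the highest of each group. ABL2, a cytoplasmic tyrosine kinase that acts on the actin cytoskeleton, stood at -0.43 (limma adjusted p = 0.145, with the block 0.0437), with its 2 other probe sets at -0.24 and -0.44. PTPN1, a tyrosine phosphatase, stood at -0.55 (limma adjusted p = 0.191, with the block 0.0210), whereas its 3 weaker probe sets stood at 0.011 to 0.13. FLOT1, a membrane scaffold protein, stood at 0.60 (limma adjusted p = 0.297, with the block 0.0147), with 3 of its 4 probe sets at 0.60 to 0.83 and a weak one at -0.10. These block values are adjusted over genes. Adjusted over all probe sets, the limma block value of the same probe set was 0.0850 for ABL2, which no longer passed. For GRB7, PTPN1 and FLOT1 it was 0.00704, 0.0496 and 0.0381.

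The Src family kinase genes SRC, FYN and YES1 stood at 0.17, -0.02 and 0.04, with 0 of these 3 past the test. Each value is that of the brightest of 7, 5 and 3 probe sets, and the others are not given here. The FYN probe set read 3.50 to 3.72, below the median gene mean. ADAM10, a protease that cleaves ephrins, stood at 0.02. These 4 were singled out after their values were seen.

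**Figure D3:**
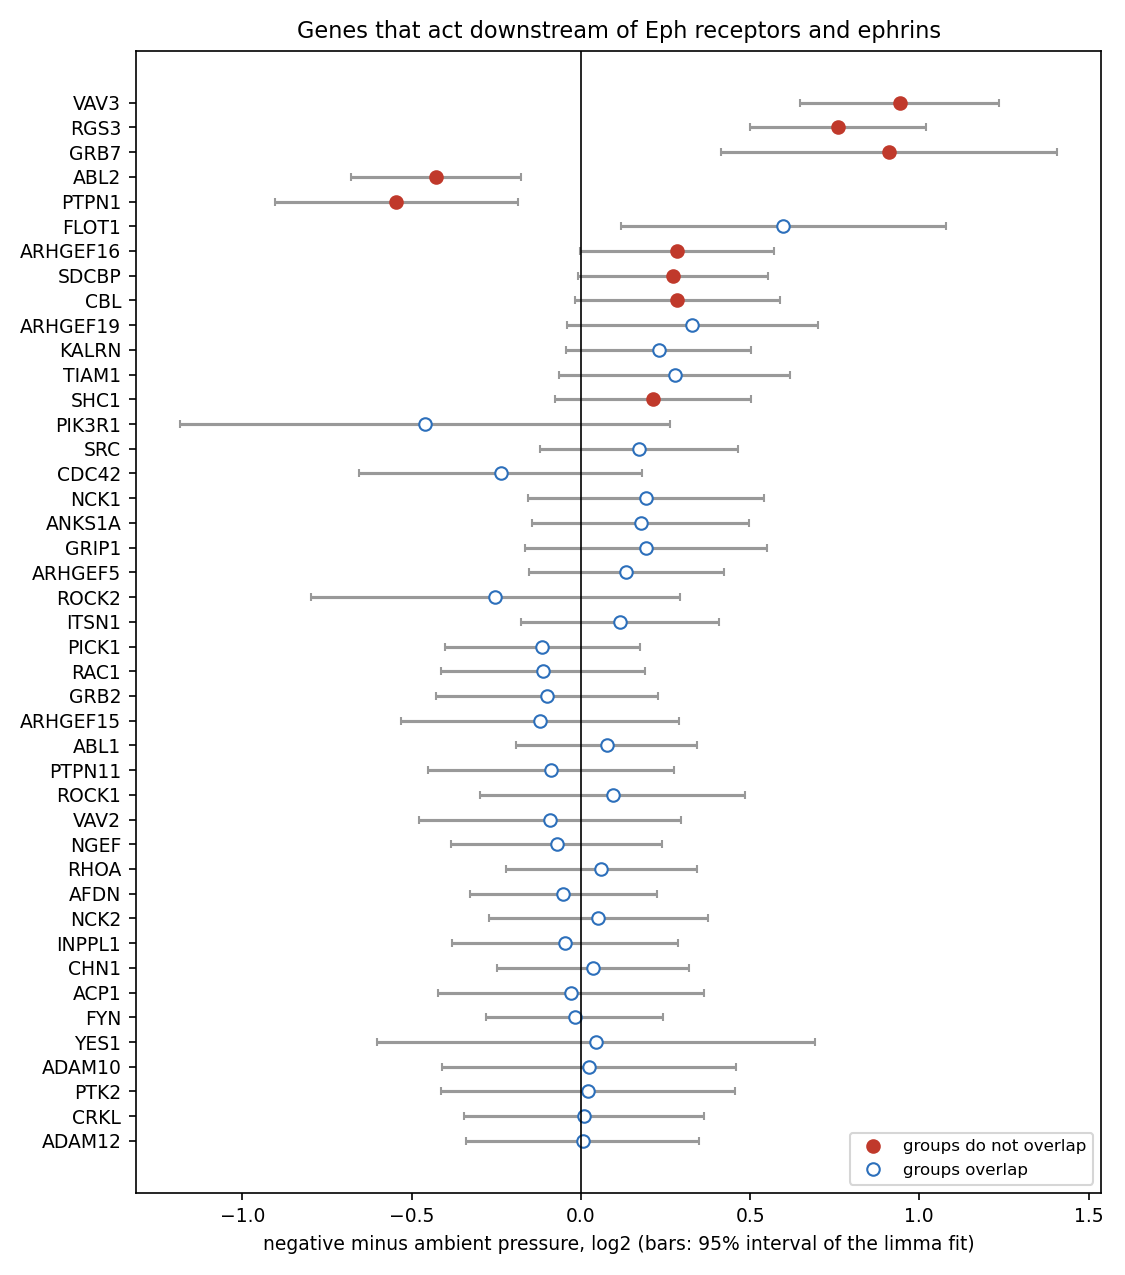
Difference between negative and ambient pressure (horizontal axis, log2) for the 43 measured genes of the Eph signalling list, ordered by p from the top, with 95% intervals of the limma fit over all genes. VAV3 and RGS3 are at 0.94 and 0.76, and filled red points mark genes whose groups do not overlap.

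**Figure D4:**
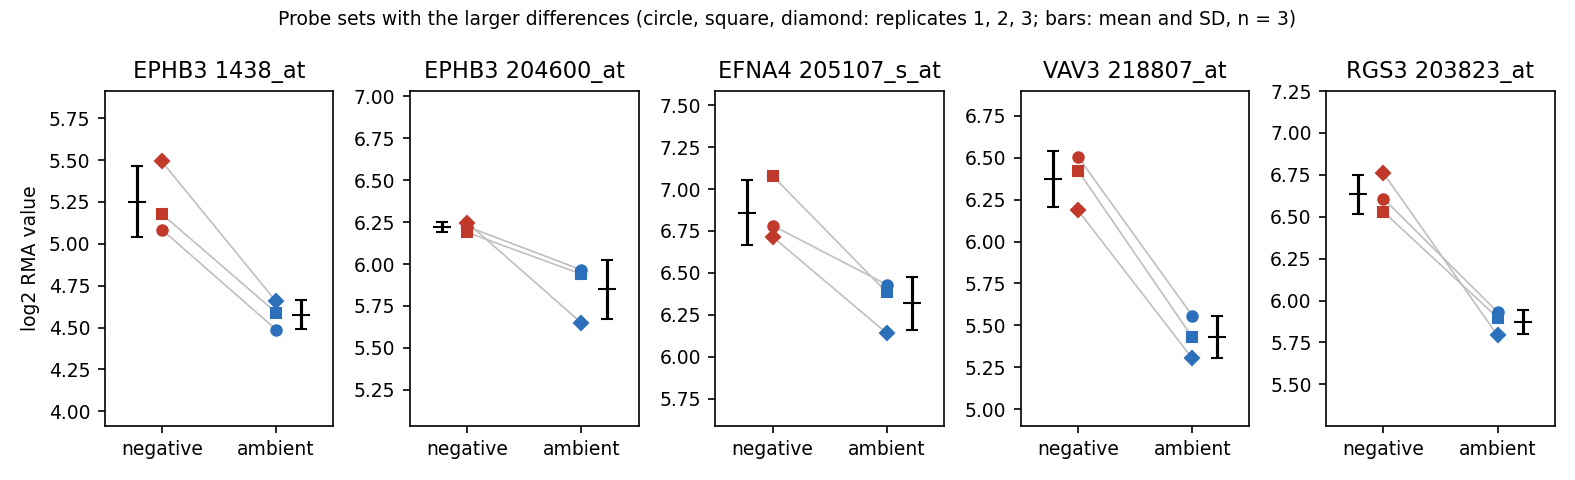
Log2 RMA values (vertical axis) under negative pressure (red, left) and ambient pressure (blue, right) of both EPHB3 probe sets, EFNA4, VAV3 and RGS3, panels chosen after their values were seen, with the mean and SD beside the 3 arrays. In each panel all 3 negative pressure arrays lie above the ambient arrays, and grey lines join the same replicate number.

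The genes most like EFNA1 and EPHA2 over the 6 arrays were sought by the root mean square difference between values centred on each gene's mean. Among 9886 genes above the median gene mean, RAB2B (0.020), EIF4B (0.032) and MED8 (0.032) were closest to EFNA1, with differences between the pressures of 0.34, 0.37 and 0.36. UCKL1 (0.056), CORO1C (0.070) and COG2 (0.080) were closest to EPHA2, at -0.33, -0.41 and -0.29. None of these 6 passed the limma test. They were picked for values close to those of EFNA1 and EPHA2, so similar differences and similar test results follow from the choice.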

How the data were processed

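RNA of 6 HaCaT cultures, 3 per group, was measured on Affymetrix arrays of 54675 probe sets. The values the authors deposited are on the log2 scale. The submitters' processing notes name RMA and Affymetrix Expression Console 1.2. A genome build, scan dates and filters were not found in the labels. After removing 62 control probe sets, 54613 were tested. The platform annotation gave 41091 of them 1 symbol, 1801 several and 11721 none, and the identifiers of 19735 of 19775 genes matched RefSeq. The brightest probe set by mean over the 6 arrays stood for a gene, with no filter and no pseudocount. Groups were compared by limma 3.58.1 (lmFit, then eBayes; R 4.3.3) with Benjamini-Hochberg adjustment over all genes or all probe sets, at 0.05. The fit was tested on simulated data in which arrays varied independently. The simulation held no deviations shared by replicate number, so it does not cover that feature of these arrays.

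The members and lists were chosen with earlier results of these data known. All 10 members were named, with the 2 other family genes and the 6 signalling genes of smallest p, and 3 like genes for each of the 2 members of smallest p in either direction. Deviations from the group means correlated at 0.27, 0.27 and 0.53 between arrays numbered 1, 2 and 3, each above 0.1. On this ground values with the replicate number as a block are given where they change a call. All other values come from the comparison without it. Deviations cancel out within a group, so the shared position of replicate 3 also enters the correlations of replicates 1 and 2. Arrays of unlike numbers were not correlated, so whether replicates 1 and 2 pair between the groups was not tested. The labels name no shared day or batch. Alternatives were the replicate block, 3 rescalings, a filter on low means, other probe set choices, variance models, array weights and leaving out each array, and, added after seeing the data, leaving out both replicate 3 arrays. The number of arrays limits the precision.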

Additional observations from a re-analysis of the deposited data

How the results depend on the processing

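Of 9 member genes 0 passed in either direction in every setting run except array weights, where 1 was higher, EFNA1 (0.36, limma adjusted p = 0.0445). EPHB3 lay just short of the threshold with the mean of its probe sets (0.52, limma adjusted p = 0.0504). With the probe set of largest variance it stood at 0.67 (limma adjusted p = 0.0920). Its result therefore depends on the probe set chosen. Of 20 member probe sets 0 passed, but 1, the EPHB3 probe set 1438_at, passed with the replicate block, with array weights (adjusted p = 0.0163) and at an adjusted p under 0.1. How many of all probe sets lay under 0.1 was not counted. No member pair of probe sets was called with the replicate block, when any 1 array was left out or with the third replicates of both groups omitted. In the rest of the family 1 gene was higher with the replicate block and 1 with array weights, EFNA4 in both. In the Eph signalling list 2 genes were higher and 0 lower, against 4 higher and 2 lower with the replicate block, 4 and 2 with array weights, 1 higher with the mean of all probe sets and 4 higher with the third replicates of both groups omitted. Leaving out 1 array gave 0 to 2 higher. The list median was 0.13 without negative pressure replicate 3. Over all genes 120 were higher and 62 lower, 568 and 408 with the replicate block, 693 and 452 with array weights, 222 and 150 with the third replicates omitted, and 105 lower with cyclic loess. Leaving out 1 array gave 5 to 102 higher and 2 to 46 lower. Over all probe sets 262 passed, 1242 with the replicate block, 1516 with array weights, 600 with the third replicates omitted and 1 to 235 without 1 array.

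The signs of some members and member probe sets turned, none of them called. EPHA1 stood at -0.12 with the mean of its probe sets and at -0.23 with that of largest variance, EPHA4 at 0.049 with the mean, and EFNB1 at -0.0035 with repeated quantile normalization and -0.017 with cyclic loess. With the third replicates omitted the EFNA5 probe set 207301_at stood at 0.026 and the EPHA4 probe set 228948_at at 0.15. The same EPHA4 probe set stood at 0.023 with array weights, and 227449_at of EPHA4 at 0.00015 with cyclic loess. When 1 array was left out, EPHA1 ran from -0.039 to 0.22, EPHA4 from -0.069 to 0.016, EFNA3 from -0.038 to 0.21 and EFNB1 from -0.072 to 0.13. The probe sets 227449_at and 228948_at of EPHA4 ran from -0.074 to 0.039 and from -0.23 to 0.083, 233814_at of EFNA5 from -0.37 to 0.0065 and 241482_at of EPHA1 from -0.53 to 0.056. The cause was not tested. EPHA4 and the weaker probe sets of EPHA1 had values below the median gene mean, which limits what a small difference can show. No background level was estimated here. EPHA1, EFNA3 and EFNB1 changed sign when 1 array was left out although the probe sets that stand for them averaged above that mean.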

Other observations

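Antisense transcripts of 2 receptor genes were measured under their own names. EPHA2-AS1, at the EPHA2 locus, read 3.03, 3.09 and 3.02 under negative pressure and 3.31, 3.03 and 3.66 at ambient pressure, and the groups overlapped. EPHA1-AS1 was measured by 2 probe sets, which stood at -0.09 and 0.07 on the log2 scale (negative minus ambient pressure). None of the 3 probe sets passed the limma test over all probe sets.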
